A study of Mus musculus with 2 samples.

Results

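The 10 genes Ets1, Ets2, Elk3, Elk4, Fli1, Erg, Elf1, Etv6, Gabpa and Spi1 of the ETS family of transcription factors were examined for open chromatin in hepatic stellate cells, which lie along the liver sinusoids and store retinoids. They are 10 of 21887 protein-coding genes in the mouse annotation used and were chosen by name as family members, with mesenchymal and endothelial or blood cell genes set side by side. Nuclei were assayed by ATAC-seq, where the transposase Tn5 inserts adapters into accessible DNA, after sorting on a fluorescent mCherry-RPL10A fusion protein. The 2 samples, replicates A and B, form 1 group of healthy, chow-fed mice of strain C57BL6/JBomTac, all carrying the allele Gt(ROSA)26Sortm1(mCherry-Rpl10a-Flop)Kra together with the transgene Tg(Lrat-cre)1Rshw (B6.Cg). The transgene places Cre under Lrat, a gene of retinol storage. The mice's age, any pooling of animals and whether A and B came from separate mice were not given in the sources used here, so the spread between A and B may be technical. With 1 group there was no contrast to test, and what follows describes the peaks and how far A and B matched. Entry names in the list of B begin with the word Oil, which its label does not carry; the label was followed, and the part of this in any difference between A and B was not tested.

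ETS proteins share a winged helix-turn-helix DNA-binding domain that reads a GGAA core. Ets1 and Ets2 are close relatives activated by MAP kinase phosphorylation, and Elk3 and Elk4 are ternary complex factors that bind DNA together with serum response factor. Fli1 and Erg maintain endothelial identity, and Spi1 encodes PU.1, a master regulator of myeloid and B cells. Elf1 is expressed widely and strongly in lymphoid cells, Etv6 is a transcriptional repressor, and Gabpa encodes the DNA-binding subunit of GA-binding protein, which acts at housekeeping and mitochondrial genes. Ets1 and Elk3 are also expressed in endothelium, so the grouping by cell type is not exclusive.

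A peak is an entry of the authors' list for that replicate, and its fold enrichment is the authors' linear ratio for that peak. Each locus was taken as the gene body plus 20 kb beyond each end in mm10. An entry of A is called replicated where it overlapped an entry of B by 1 bp or more. A start counts as open where a replicated peak lay within 1000 bp of it. List A held 36577 entries and list B 28794, and read depth is unknown because no read counts are given. As a check of the sort, 11 of 12 stellate markers had an open start, against 0 of 12 endothelial, 0 of 10 myeloid and 0 of 8 hepatocyte markers. Of all protein-coding genes, 43.1% had one. In their loci, 12 of 12 stellate markers had a replicated peak, against 5 of 12 endothelial, 1 of 10 myeloid and 1 of 8 hepatocyte markers. Of all protein-coding genes, 64.6% had a replicated peak in the locus. These marker lists were chosen with earlier results of these data known.

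The promoter table used here lists starts for 7 of the 10 genes, all but Ets1, Fli1 and Spi1, for which either end of the gene was used in place of a start. Shown are the 250 bases before the start, 5′ to 3′ on the strand of the gene, of 4 genes whose start was open and of Erg, which had no peak. Capitals mark each GGAA core or its reverse complement TTCC, so that the family's own recognition core can be seen in the family's promoters. The sequences are from RefSeq, build GRCm38.p6, which shares its coordinates with mm10. The window of Gabpa lies at chr16:84834874-84835123 on the plus strand, Elk4 at chr1:132007370-132007619 on the plus strand, and Ets2 at chr16:95702157-95702406 on the plus strand. That of Elf1 lies at chr14:79480944-79481193 on the plus strand and that of Erg at chr16:95586594-95586843 on the minus strand.
Gabpa: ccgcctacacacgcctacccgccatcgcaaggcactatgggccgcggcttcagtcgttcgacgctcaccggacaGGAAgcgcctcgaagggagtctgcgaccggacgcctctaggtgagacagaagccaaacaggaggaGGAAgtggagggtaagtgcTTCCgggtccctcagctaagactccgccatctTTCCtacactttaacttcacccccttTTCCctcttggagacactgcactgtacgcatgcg
Elk4: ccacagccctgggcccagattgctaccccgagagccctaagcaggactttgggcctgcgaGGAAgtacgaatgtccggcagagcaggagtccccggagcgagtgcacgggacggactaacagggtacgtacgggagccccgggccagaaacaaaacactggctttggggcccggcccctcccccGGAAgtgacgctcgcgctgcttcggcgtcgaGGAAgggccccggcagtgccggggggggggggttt
Ets2: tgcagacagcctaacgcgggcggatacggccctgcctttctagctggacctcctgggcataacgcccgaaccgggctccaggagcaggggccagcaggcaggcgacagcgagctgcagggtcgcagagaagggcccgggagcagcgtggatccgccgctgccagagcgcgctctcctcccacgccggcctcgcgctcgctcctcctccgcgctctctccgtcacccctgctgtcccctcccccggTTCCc
Elf1: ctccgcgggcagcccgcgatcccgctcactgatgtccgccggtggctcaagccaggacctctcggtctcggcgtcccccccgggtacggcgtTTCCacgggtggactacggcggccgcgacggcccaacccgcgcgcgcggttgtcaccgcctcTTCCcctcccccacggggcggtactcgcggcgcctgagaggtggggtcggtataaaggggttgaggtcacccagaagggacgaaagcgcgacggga
Erg: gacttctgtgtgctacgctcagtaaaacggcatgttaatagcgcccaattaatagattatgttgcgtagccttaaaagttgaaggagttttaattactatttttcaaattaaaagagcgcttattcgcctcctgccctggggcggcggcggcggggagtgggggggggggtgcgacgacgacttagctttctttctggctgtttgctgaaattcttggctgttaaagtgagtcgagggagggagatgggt

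The entries covered 250 of the 250 bases of Gabpa in A and 250 in B, and 204 bases of Elk4 in A and 150 in B. They covered 123 bases of Ets2 in A and 147 in B, and 165 bases of Elf1 in A and 159 in B. Cores on either strand numbered 5 in Gabpa, 3 in Elk4, 1 in Ets2, 2 in Elf1 and 0 in Erg. The count depends on which start is taken: the other windows of Erg, also with no entry, held 2 and 4, and the second listed window of Elf1, with no entry either, held 0. With the 50 bases after the start included, the shown windows held 5 in Gabpa, 4 in Elk4, 1 in Ets2, 2 in Elf1 and 1 in Erg. In Gabpa and Elk4, 1 core stood within the longer motif CCGGAAG, read as CTTCCGG on the other strand. None of the other 10 windows listed for the 7 genes held that motif. Over 21263 windows of that longer span at protein-coding starts, 95.7% held the core, as did all 5 shown here, and 11.6% held CCGGAAG on either strand. A match of letters is a description and not a bound site, and GC content was 59.6% in Gabpa, 68% in Elk4, 71.6% in Ets2, 71.6% in Elf1 and 48.8% in Erg.

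Most of the ETS genes had open chromatin in both replicates, and the loci of the mesenchymal or broadly expressed genes held most of the replicated peaks. Of the 10 genes, 9 had a replicated peak in the locus, where 64.6% of all protein-coding genes had one. The 10 loci held 57 entries of A and 44 of B, of which 37 of A and 36 of B overlapped the other list. Taken alone, A gave 57 and a median of 5 per locus, and B gave 44 and a median of 2.5. The replicated shares, 64.9% of A and 81.8% of B, were close to those over the whole lists, 64.1% of A and 81.7% of B. The median was 2.5 replicated peaks per locus in the ETS genes and 1 over all genes, and 3.16 per 100 kb of locus against 1.57 over all genes.

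**Figure D1:**
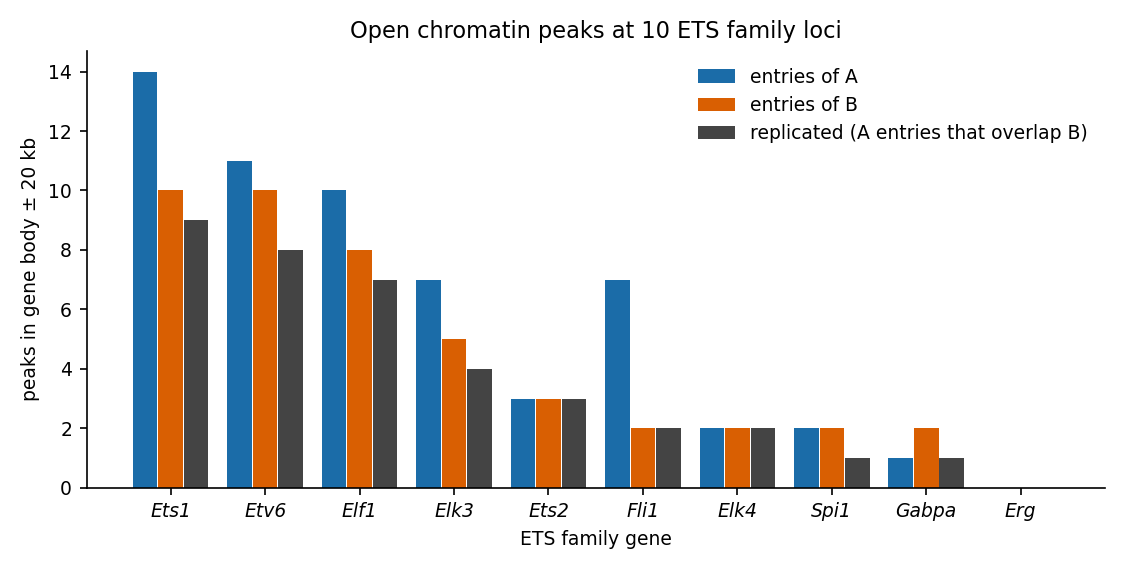
Number of peaks in the gene body and 20 kb on either side for each ETS gene, as entries of A, entries of B and A entries that overlap B. Ets1 has 9 replicated peaks, Etv6 8 and Elf1 7, and Erg has no entry in either list.

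The 7 mesenchymal or broadly expressed genes held 34 of the 37 replicated peaks, over 868 kb of locus. Fli1, Erg and Spi1 held the other 3, over 502 kb, and none of these peaks lay in the body of Fli1, Erg or Spi1. Per 100 kb of locus this was 3.92 in the first set and 0.598 in the second, against 1.77 over all genes. Some of the peaks also lay at a start of another gene: 4 at Elf1, 2 at Etv6, 1 at Gabpa and 1 at Spi1. A replicated peak lay in the body of 7 of 10 ETS genes, the same 7, where 48.7% of all genes had one. Starts were open at 6 of 10 ETS genes, against 43.1% of all genes: Ets2, Elk3, Elk4, Elf1, Etv6 and Gabpa. A replicated peak away from the starts of all protein-coding genes lay in 7 of 10 ETS loci, against 31.3% of all genes. Where no start is listed, as at Ets1 and Fli1, both gene ends stood in for it. A start inside such a gene is therefore not excluded.

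By replicated peaks the order was Ets1 with 9, Etv6 with 8, Elf1 with 7, Elk3 with 4, Ets2 with 3, Elk4 and Fli1 with 2 each, Gabpa and Spi1 with 1 each, and Erg with 0. Ets1 had 14 entries in A and 10 in B, Etv6 had 11 and 10, and Elf1 had 10 and 8. Elk3 had 7 in A and 5 in B, Fli1 had 7 and 2, and Ets2 had 3 in each. Ets1, Etv6 and Elf1 stood 1 replicated peak apart, within the gap between A and B at those loci, so the counts do not set them in order. In replicated peaks the step from Elk3 to Ets2 was likewise within the gap at Elk3. By entries, Elk3 had more than Ets2 in both lists, 7 against 3 in A and 5 against 3 in B. Ets2 in turn had 1 entry more than Elk4 in each list. Elf1 had 3 more entries than Elk3 in A and 3 more in B, while A and B differed by 2 at each of these genes.

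Long genes have more room for peaks. The ETS genes had a median length of 82.5 kb, against 17.2 kb over all genes. Ets1, Etv6 and Elf1 each had 7 or more replicated peaks, as did 2.01% of all genes and 8.08% of the 1707 genes of 100 to 250 kb. The cut of 7 equals the count of Elf1, so it is not independent of these values. With each peak given to its nearest gene only, Ets1 had 9, Etv6 7 and Elf1 5. Fli1 and Erg are of the same length range and had 2 and 0. In that range the median gene had 2 replicated peaks, 23.8% of genes had none and 15% had no entry in either list. Per 100 kb of locus the density was 5.57 at Ets1, 5.12 at Ets2, 4.95 at Elf1, 3.86 at Elk3, 3.4 at Elk4, 2.91 at Etv6, 1.45 at Gabpa, 1.36 at Spi1, 1.24 at Fli1 and 0 at Erg. The counts rest on entries of moderate strength: when entries under each list's median −log10 q were left out, the total was 12, with 4 at Ets1 and 1 each at Etv6 and Elf1, and 2 starts were open. With the 10000 strongest entries of each list the total was 5, in 5 loci: 1 each at Ets1, Elf1, Etv6, Gabpa and Spi1. Such cuts remove entries at other genes too, and shares over all genes under them are not given here. The drop is therefore not shown to be particular to the ETS loci.

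**Figure D2:**
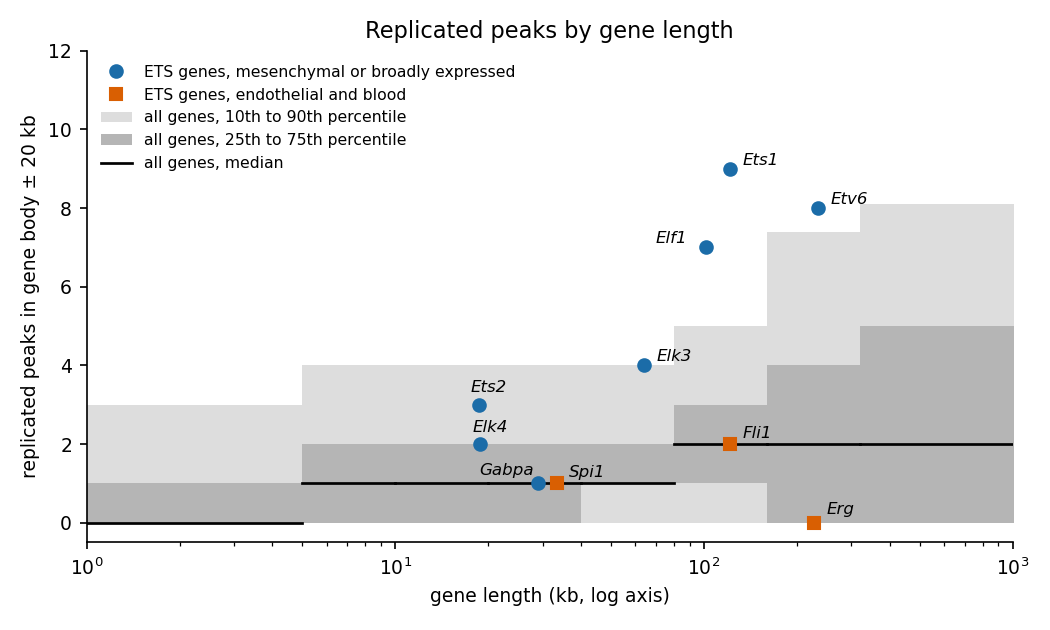
Replicated peaks per locus against gene length in kb on a log axis, with the ETS genes as points and all protein-coding genes as percentile bands in 8 length bins. Ets1, Elf1 and Etv6 lie above the 90th percentile of genes of their length, Fli1 lies on the median and Erg at 0.

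Ets1, on chromosome 9 from 32636241 to 32757820, had 9 replicated peaks, all inside the gene. The widest, of 569 bp at 32672092 to 32672660, began 35.9 kb from the lower end and had fold enrichments of 14.3 (A) and 11.6 (B). In A that peak had the highest fold of the 9, and in B the highest was 11.7, at the peak from 32657301 to 32657625, which had 9.55 in A. Adjacent entries at 32646530 to 32646784 and 32646844 to 32647132, both with 10.7 in A, overlapped 1 entry of B with 9.35, so the 9 entries of A match 8 of B. Over the 9, fold enrichment ran from 6.49 to 14.3 in A and from 7.09 to 11.7 in B. The replicated peak nearest to an end of the gene, at 32752577 to 32752922, lay 4.9 kb from the higher end, where A gave 11.8 and B gave 10.7. Neither end had an entry of A or B within 1000 bp. Starts inside the gene were not analysed here, so whether an internal peak lies at one is not known.

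Ets2, on chromosome 16 from 95702407 to 95721049, was open at its start, in the promoter printed above. The peak over the start, at 95702284 to 95702505, had fold enrichments of 12.7 (A) and 14.2 (B). A weaker peak 381 bp before the start, at 95701800 to 95702026, had 9.29 in A and 6.59 in B. The last lay 7877 bp beyond the gene, at 95728926 to 95729166, where A gave 12.4 and B gave 14.3. All 3 entries of A and all 3 of B matched, and the replicates put the same peak lowest.

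Elk3, on chromosome 10 from 93247415 to 93311159, had 4 replicated peaks. The 1 at its start, at 93310896 to 93311045, was weak, where fold enrichment was 6.86 for A and 6.8 for B, and it lay 114 bp inside the gene. Of the 250 bases before the start, entries covered 0 in A and 0 in B. A peak 1.67 kb inside the gene, at 93309319 to 93309489, had 8.35 in A and 12.4 in B. Another lay 19 kb inside, at 93291937 to 93292112, where A gave 11.8 and B gave 7.27. The strongest replicated peak by either list lay 7624 bp beyond the far end, at 93239529 to 93239791, where A gave 11.9 and B gave 13.6, and within the neighbouring gene Cdk17. At the inner peaks 1.67 and 19 kb from the start the replicates differed in opposite directions, and A alone had an entry of 12.5 beyond the gene, also in Cdk17. With reciprocal overlap of 50% the start of Elk3 was no longer open in both.

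The other ternary complex factor gene, Elk4, spans 132007577 to 132026448 of chromosome 1, and 2 peaks of its locus were replicated. The 1 over its first listed start, at 132007416 to 132007678, had fold enrichments of 10.7 (A) and 5.88 (B). The other, at 131990171 to 131990721, lay 16856 bp before the gene body, where A gave 11.7 and B gave 10.5. In B the start peak ranked among the weakest of the list, within the top 96.2% by fold enrichment, and in A within the top 43.8%. The other 2 listed starts of Elk4 had no entry in their promoter windows.

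Etv6, on chromosome 6 from 134035700 to 134270158, had 8 replicated peaks. The strongest lay inside the gene, 42.4 kb from the start, at 134078056 to 134078311, where fold enrichment was 18.2 for A and 14.3 for B, within the top 9.04% of list A and 17.9% of list B. The peak over the start, at 134035587 to 134035959, had 11 in A and 7.69 in B. A peak 595 bp before the start, at 134034897 to 134035105, had 11.5 in A and 6.99 in B and lies in the neighbouring gene model Gm46977. Both this peak and the one over the start of Etv6 lie within 1000 bp of a start or gene end of Gm46977. Thus 2 of the 8 peaks are shared with another gene. The other 5 lay 25.3 to 116 kb into the gene, and the rest of the gene body had no replicated peak. Beyond 116 kb from the start A alone had entries, 2 of them, with 7.79 and 7.5.

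Elf1, on chromosome 14 from 79481174 to 79582491, had 7 replicated peaks. The strongest, at 79587524 to 79587783, had fold enrichments of 16.5 (A) and 16.3 (B), but it lay 5033 bp beyond the gene at the start of its neighbour Sugt1, as did the peak at 79587164 to 79587443. The peak over the start of Elf1, at 79481029 to 79481225, had 8.02 in A and 6.72 in B, and the next, 327 bp inside, had 8.02 in A and 10.5 in B. Both also lie at a start of Wbp4, so 4 of the 7 peaks are shared with another gene's start. The remaining 3 lay inside Elf1 and away from all starts. They had 10.2, 8.78 and 7.69 in A, and 5.26, 7.87 and 12.9 in B, and the order of the 3 is reversed between A and B.

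Gabpa, on chromosome 16 from 84834891 to 84863783, had 1 replicated peak, and it was the highest in A of all 37. It covered the start, at 84834809 to 84835150, where fold enrichment was 18.5 for A and 16.7 for B, within the top 8.35% of list A and 9.77% of list B. It lies at a start of Atp5j as well, a mitochondrial ATP synthase gene, so the peak is not Gabpa's alone. B also had an entry at 84835572 to 84835772 with 10, where A had none. No other entry lay within 20 kb of the gene. This start was the only 1 of the 6 that was still open in both lists with the 10000 strongest entries of each.

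**Figure D3:**
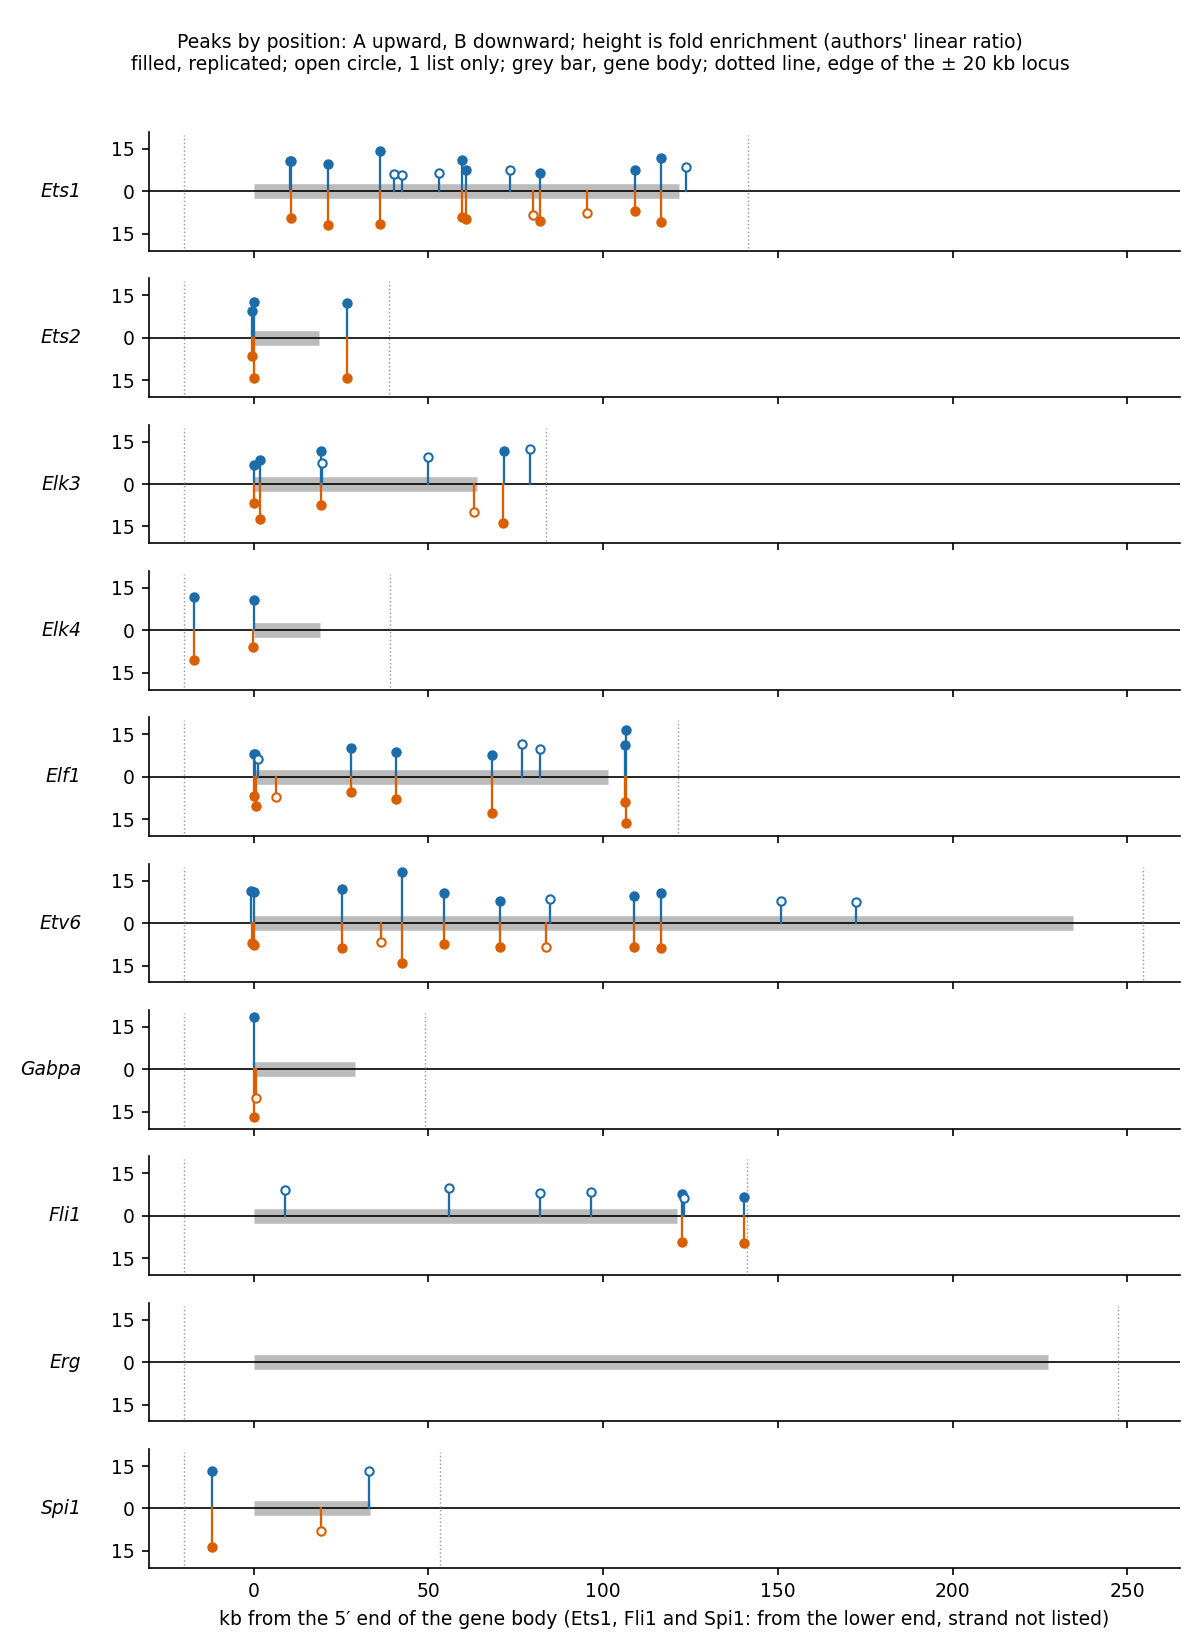
Peaks at each ETS locus by distance in kb from the 5′ end of the gene body, or from the lower end for Ets1, Fli1 and Spi1, with fold enrichment of A upward and of B downward. Filled points are replicated. Ets1, Elf1 and Etv6 carry peaks along the gene, Gabpa has them at the start alone, and the bodies of Fli1, Erg and Spi1 hold no filled point.

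The endothelial genes Fli1 and Erg had no replicated peak in their bodies. Erg, on chromosome 16 from 95359169 to 95586600, had no entry of A or B anywhere in its locus of 267 kb, at none of its 3 listed starts and in neither flank. This says only that no peak was called there in these lists, since depth is unknown. Fli1, on chromosome 9 from 32422204 to 32543432, had 7 entries in A but 2 in B. The 4 inside its body were in A alone, with fold enrichments of 9.25, 9.66, 7.98 and 8.43. The 2 replicated peaks lay outside the gene, 1317 bp beyond its higher end at 32544749 to 32544998, where A gave 7.73 and B gave 9.42, and 19.1 kb beyond it at 32562498 to 32562719, where A gave 6.69 and B gave 9.56. A window of 2500 bp would count the end of Fli1 as open. Among the 12 endothelial markers, 5, or 41.7%, had replicated peaks in the locus, 7 in all and none at a start. Of all genes, 64.6% had a replicated peak in the locus and 43.1% had an open start. Pecam1 and Vwf had 2 each, and Kdr, Clec4g and Sox18 had 1 each. Cdh5, Tie1, Tek, Stab2, Lyve1, Emcn and Sox17 had none, and the part of such cells in the entries at Fli1 was not tested.

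Spi1, the myeloid gene, on chromosome 2 from 91082374 to 91115759, had 1 replicated peak, which lies in its neighbour Slc39a13 at a start of that gene. It was at 91070174 to 91070766, where fold enrichment was 13.1 for A and 13.8 for B. Each list had 1 entry inside the body of Spi1, and they did not overlap. That of A, at 91115156 to 91115383, lay 0.376 kb from the higher end and had 13.2, within the top 26.7% of its list. That of B, at 91101549 to 91101698, had 8. With A alone the end of Spi1 would thus count as open, which raises the number of ETS genes counted as open at a start to 7. Which end of Spi1 holds its start is not listed, so this end may not be a start. Of 10 myeloid markers, 7 had no entry in either list, where 27.2% of all genes had none. The 1 myeloid marker with replicated peaks in its locus was Cd68. It had 4, with 0 in its body and 0 away from all starts.

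Fli1 and Ets1 are neighbours on chromosome 9, and Erg and Ets2 on chromosome 16, with no protein-coding gene between the members of either pair. The body of Ets1 held 9 replicated peaks, or 7.4 per 100 kb, and that of Fli1, of like length, held 0. The 92.8 kb between them held 3 replicated peaks, 3.23 per 100 kb. Of these, 1 lay near the middle of the gap, 44.2 kb from Ets1 and outside both loci, at 32591831 to 32592071, where fold enrichment was 14.3 for A and 9.42 for B. The body of Ets2 held 1 replicated peak in 18.6 kb and that of Erg 0 in 227 kb. The 116 kb between them held 2, both at the start of Ets2, and 1 of these straddles the start and is the same peak as that counted in the body of Ets2. In both pairs the gene of the ERG subfamily had no replicated peak in its body while its ETS1 or ETS2 neighbour did. For Ets2 that is the peak over the start alone. Of all genes, 48.7% had a replicated peak in the body, so a body without one is common.

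**Figure D4:**
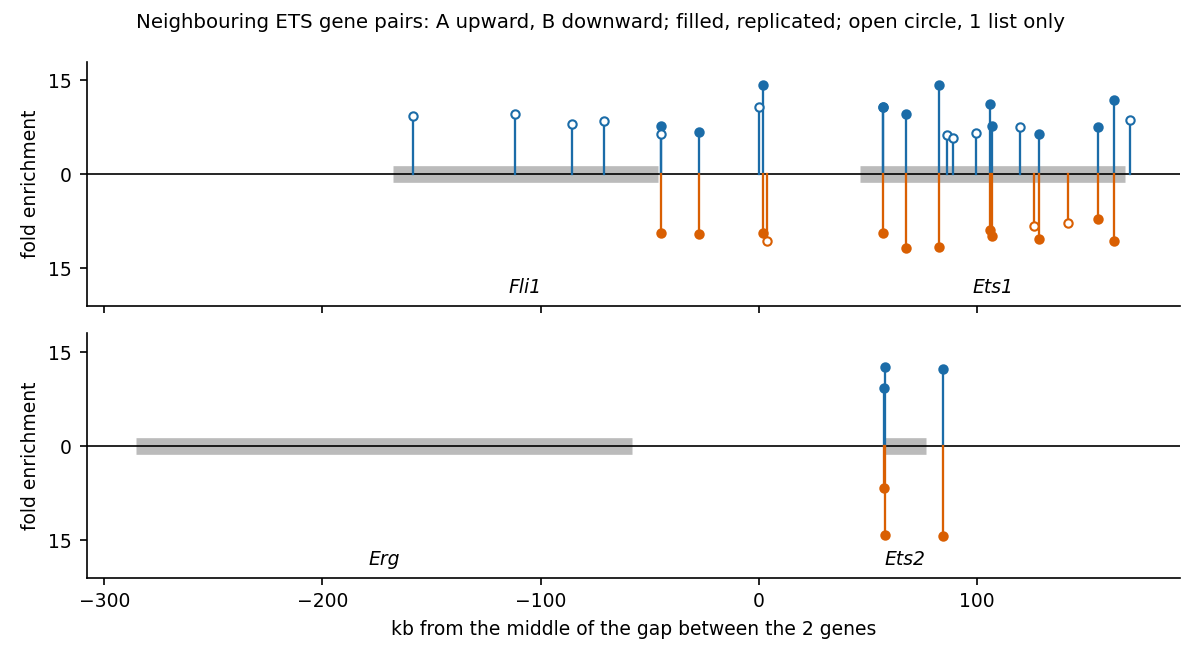
Peaks along the neighbouring pairs Fli1 and Ets1 (upper) and Erg and Ets2 (lower), by distance in kb from the middle of the gap between the genes, with fold enrichment of A upward and of B downward. Grey bars are gene bodies and filled points are replicated. The bar of Erg carries no point, and that of Fli1 carries 4 open points of A.

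Across the 37 replicated peaks, fold enrichment had a median of 10.7 in A and 9.35 in B, against 11.9 in A and 10.4 in B over all replicated peaks. The log2 ratio of A to B had a median of 0.16, and its absolute value a median of 0.29 and a highest of 0.95, at an inner peak of Elf1. Over all replicated peaks the median was 0.15 and the median absolute value 0.27. Of the 37, 24 were higher in A and 13 in B. The median distance between summits of A and B was 34 bp. The 20 entries of A that were not replicated had a median of 8.17, against 7.96 for such entries in the whole list. The lists are not scaled to each other, so a shift between A and B of this size says nothing of the gene.

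**Figure D5:**
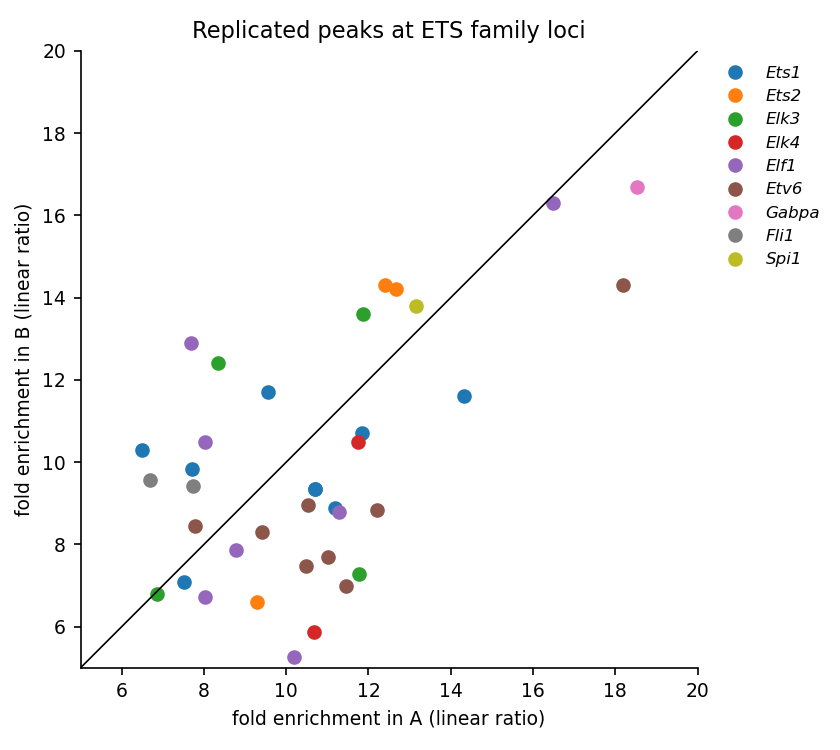
Fold enrichment of each replicated peak at the ETS loci in B against A, both as the authors' linear ratio, with the line of equal values. The start of Gabpa, the flank of Elf1 and the inner peak of Etv6 lie highest in A, with 18.5, 16.5 and 18.2.

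The other 17 ETS genes varied by the same count. Of these, 11 had a replicated peak in the locus and 7 had an open start, or 64.7% and 41.2%, close to the 64.6% and 43.1% of all genes. The median was 2 per locus, against 1 over all genes. Erf, a repressor, had 7, but 1 lay in its short body and 1 away from all starts. Etv5, Elk1 and Etv1 had 4 each, and their starts were open. In the gene body lay 3 at Etv5, 2 at Etv1 and 1 at Elk1, and 0 of those of Elk1 lay away from all starts. Etv5 and Etv1 belong to the PEA3 subfamily, whose remaining gene, Etv4, had no replicated peak and 1 entry in A, and Elk1 is the third ternary complex factor. Ehf and Elf5, epithelial ETS genes, had none: Ehf had no entry in either list and Elf5 had 2 in A alone. In all, 20 of the 27 ETS genes had a replicated peak in the locus and 13 had an open start, where 64.6% and 43.1% of all genes did.

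Of 15 partners and upstream kinases of ETS factors, 12 had a replicated peak in the locus and 12 had an open start, or 80% for each, against 64.6% and 43.1% of all genes. The median was 2 per locus, against 1 over all genes. Srf, the DNA-binding partner of Elk3 and Elk4, had 2, and its strongest, at chromosome 17 from 46556140 to 46556524, had fold enrichments of 15.1 (A) and 13.7 (B). Gabpb2, a partner subunit of Gabpa, had 4, but 1 lay in its body and 1 away from all starts. Its strongest, outside the body at chromosome 3 from 95163631 to 95163942, had 9.86 in A and 12.2 in B. Gabpb1, the other partner subunit, had 0, with 2 entries in A alone. The MAP kinase pathway genes Map2k2 and Mapk3 had 3 each and were open at a start, Mapk3 by either gene end. Runx1, a partner of Ets1 on DNA, had 3. Lmo2, a cofactor of blood and endothelial cells, had no replicated peak, with 1 entry in A.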

How the data were processed

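ATAC-seq peak lists of 2 replicates of 1 group were used, 1 list per library. Per the submitters' processing notes, the tools were MACS2, HOMER, bedtools, Picard, SAMtools and STAR 2.7.0 with build mm10, listed without role or order. Tn5 shift and cleaning of the lists are not given in any source used here. The labels' protocol also names a single-cell kit, whose use here is not stated. For each entry the authors deposited a fold enrichment (a linear ratio), a −log10 p and −log10 q, a score and a summit offset. These are the authors' values, used within a list to describe and rank. From them, entries were counted in gene bodies plus 20 kb beyond each end, and called replicated at 1 bp of overlap, using pandas 2.3.3, numpy 2.4.6, scipy 1.17.1 and matplotlib 3.10.9 under Python 3.11.15. Coordinates are 1-based. Gene spans and promoters came from RefSeq GRCm38.p6 tables; of 21887 protein-coding genes, 17492 have a listed start, and both ends were used for the rest. The interval functions were checked on simulated entries. No test applies to 1 group; without read counts there is no depth or interval per peak. Genes and lists were chosen with earlier results of these data known. All 10 ETS genes are named; of the other ETS genes and of the partners, up to 4 with the most replicated peaks and up to 2 longest with none, ties going to the higher fold enrichment in A; Srf, Etv4, Cd68 and the endothelial markers were named outside that rule, after their values were seen.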

Additional observations from a re-analysis of the deposited data

How the results depend on the processing

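Of 33 recomputed summary values, 22 stayed within 1.5 times the reported one. Without the entries under each list's median −log10 q, the number per locus at the median was 1, the total 12 and the open starts 2. With the 10000 strongest entries they were 0.5, 5 and 1, and 5 ETS genes had a replicated peak. The median was 1 in gene bodies alone and 5 with 50 kb on either side. With either replicate alone, the median ran from 2.5 to 5, the total from 44 to 57, the genes with a peak were 9 and the open starts ran from 6 to 7. The 7 include an end of Spi1, whose start is not listed. Of 90 values for named ETS genes, 59 stayed within 1.5 times. Fewer and stronger entries leave fewer peaks by construction, and shares over all genes under these cuts are not given here. Other causes were not tested. Counting entries that share a name once, and using both gene ends for every gene, were chosen after seeing the data and changed no count by over 1.5 times. Depth is unknown, so an empty locus is not shown to be closed. No paired analysis was possible because there is 1 group.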

Other observations

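The longer motif of the family was also counted over all promoters. Of 2459 promoter windows of protein-coding genes with CCGGAAG on either strand, 73.6% (95% Wilson interval 71.8 to 75.3) overlapped a replicated peak, against 32.6% (32 to 33.3) of 18804 windows without it. Seen from the other side, 22.8% (21.9 to 23.7) of 7943 open windows held the motif, against 4.88% (4.53 to 5.26) of 13320 windows without a replicated peak. GC content moved with the motif, with a median of 61.3% in windows that hold it and 55.7% in those that do not. Among windows above 60% GC, 79.2% of 1391 with the motif and 55.3% of 6702 without it overlapped a replicated peak. The part of GC content or of gene class in the rest was not tested, and windows of the same gene are not independent. The intervals cover counting error only. This comparison was chosen after the lists had been seen.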
